A study of Mus musculus with 6 samples.

Results

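The interferon-stimulated genes are the transcripts that cells raise when they sense an interferon. A list of 39 such genes, 34 of the type I kind and 5 GTPase genes of the gamma type, was read by platform symbol in splenic B cells of p80HT mice and their WT littermates. Of the 39, 34 were measured (32 type I and 2 gamma-type) among 19938 genes in all. Isg15, Gbp2, Igtp and Irgm2 were not read because their probesets carry several symbols, and Ifi44 was not read because its symbol is not in the platform table used. Where a gene had several single-symbol probesets, the one brightest on average across the 6 arrays was taken.

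The p80HT group held 3 transgenic mice with M-protein in their serum, the monoclonal immunoglobulin of plasma cell disorders. They carry the human coding sequence of p80HT, a truncated NF-κB2 protein found in lymphoma, under an H-2Kb promoter with an immunoglobulin μ enhancer, so that T as well as B lymphocytes can express it. The WT group held 3 littermates without the transgene, and both groups were 1 year old on a mixed C57BL/6J and SJL/J background. Spleen cells that bound a B220 antibody were collected with magnetic beads, and each mouse gave 1 array, with values in log2 units.

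Type I interferons act through a receptor of Ifnar1 and Ifnar2 chains, Jak1 and Tyk2, and a complex with Stat2 and Irf9 that binds the interferon-stimulated response element (ISRE). Interferon gamma acts through the chains Ifngr1 and Ifngr2 with Jak1 and Jak2, and its target genes can carry a gamma-activated site (GAS). The induced proteins block viral entry, translation and budding, degrade RNA, or, like the GBP and IRG GTPases, attack the vacuoles of intracellular pathogens. B cells respond to both classes, and plasmacytoid dendritic cells, which also carry B220 in the mouse, are a major source of type I interferon.

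RefSeq promoter windows (mouse build GRCm38.p6), reaching 250 bases before the start and 50 after it, were held for 25 of the 34 measured members. An ISRE, searched as GAAANNGAAA on both strands with overlapping matches counted, was found for 12 of these 25 members. Since a gene can have several windows, shares are also given by window. The ISRE was in 41.9% of the 31 windows of members and in 3.44% of all 32851 windows. A GAS, searched as TTCNNNGAA, was found for 7 of 25 members, in 22.6% of member windows and in 8.30% of all windows. The κB consensus was found for 3 of 25 members, in 9.68% of member windows and in 4.51% of all windows. Stretches of 6 members are printed, picked by hand among members with a match before the start. These members carried the separation of the groups or the high values of 1 array, but other members did so as well. Oasl2 and Cmpk2, with separated groups, and Ifit2, high on 1 array, had a window without an ISRE and are not printed. The stretches therefore do not show how often such members hold a match. Each reads 5′ to 3′ on the gene's own strand over 70 bases, with capitals marking the GAS in Plscr1 and the ISRE in the others.
Plscr1: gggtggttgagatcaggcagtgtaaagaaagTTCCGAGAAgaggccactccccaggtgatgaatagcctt
Ifit1: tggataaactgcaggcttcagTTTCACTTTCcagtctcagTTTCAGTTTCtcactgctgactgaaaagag
Ifit3: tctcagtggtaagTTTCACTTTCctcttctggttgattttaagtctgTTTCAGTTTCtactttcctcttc
Rsad2: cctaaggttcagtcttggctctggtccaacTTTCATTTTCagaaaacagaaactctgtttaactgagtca
Gbp3: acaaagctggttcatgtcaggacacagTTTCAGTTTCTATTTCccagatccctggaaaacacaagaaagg
Irgm1: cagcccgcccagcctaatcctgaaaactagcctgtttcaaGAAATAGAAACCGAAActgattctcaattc
The Plscr1 stretch lies at chr9:92250073-92250142 on the plus strand, 121 to 52 bases before the start. The Ifit1 stretch is at chr19:34640764-34640833 and the Ifit3 stretch at chr19:34583360-34583429, both on the plus strand. The Rsad2 stretch is at chr12:26456533-26456602 on the minus strand. The Gbp3 stretch is at chr3:142559972-142560041 on the plus strand and the Irgm1 stretch at chr11:48871421-48871490 on the minus strand, each ending close to the start with 2 ISRE matches that overlap. The Plscr1 window held a GAS and no ISRE, whereas those of Ifit1 and Ifit3 held 2 separate ISRE matches each. A match is a run of letters and not a measured binding site.

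Of the 6 arrays 1 stood apart. The values of p80HT replicate 3 correlated with the other 5 arrays at 0.914 to 0.925, whereas those 5 correlated at 0.981 or more, although all 6 array medians lay between 7.68 and 7.81. On that array the gland genes Pip and Amy1 reached 13.70 and 13.50, and the list of salivary and lacrimal gland genes had a median 5.59 above the WT mean. The B cell list had a median 1.51 below the WT mean on the same array, and the T cell and macrophage lists had medians 2.64 and 2.01 above it. On p80HT replicates 1 and 2 the T cell medians were 0.85 and 0.66 and the macrophage medians 0.46 and 0.36. The differences and the counts of calls are therefore given with and without p80HT replicate 3. Fewer cells of a type and less RNA per cell cannot be told apart in these bulk samples.

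Of the 34 members, 1 rose in p80HT B cells, 0 fell and 33 did not pass. A gene was called where it differed by 1.5-fold or more and limma gave an unadjusted p under 0.01, as in the threshold of the study. The member that rose was Plscr1, a membrane protein known as a phospholipid scramblase. Over all genes 1.22% were called higher and 0.968% lower, so that 1 of 34 lies close to the background. No member had a Benjamini-Hochberg adjusted p under 0.05 in limma, a level that 0.0552% of all genes reached, whereas 7 members had an unadjusted p under 0.05, against 10.2% of all genes. Those 7 were Plscr1, Ifih1, Zbp1, Rsad2 and Gbp3, higher in p80HT, and Samd9l and Sp100, lower in p80HT.

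Without p80HT replicate 3, 2 members rose, Plscr1 and Ifih1, a cytosolic sensor of long double-stranded RNA, and 0 fell. With this array set aside 2.01% of all genes were called higher and 1.45% lower. The same 2 members had a limma adjusted p under 0.05, which 4.67% of all genes reached. For 23 of the 34 members the 95% interval of the difference without this array lay within 1.5-fold in either direction, against 5 members with all arrays. A difference of more than 1.5-fold between the other mice was thus outside the interval for those 23, Ifit3, Usp18 and Irgm1 among them.

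Counted by the arrays themselves, 9 members had all 3 p80HT arrays above all 3 WT arrays, against 8.86% of all genes. These were Ifit1, Ifit3, Oasl2, Ifih1, Zbp1, Rsad2, Cmpk2, Plscr1 and Gbp3. With p80HT replicate 3 set aside, genes that lay apart must still do so, and no member was added to the 9, while the share of all genes was 19.7%. The opposite pattern was seen for 3 members, Ddx58, Samd9l and Sp100, against 11.9% of all genes, and the groups overlapped for the other 22 members. Without p80HT replicate 3, Parp14 and Epsti1 made the lower members 5, against 20.5% of all genes.

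The 95th percentile of 1027 olfactory receptor genes, which B cells are not known to use, was 7.42 and served as a background level. The WT means of Ifit1, Ifit2, Mx1, Mx2 and Rsad2 were below it, so that their differences are measured against a signal not above background. In p80HT mice the means of Mx1 and Mx2 were below it.

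**Figure D1:**
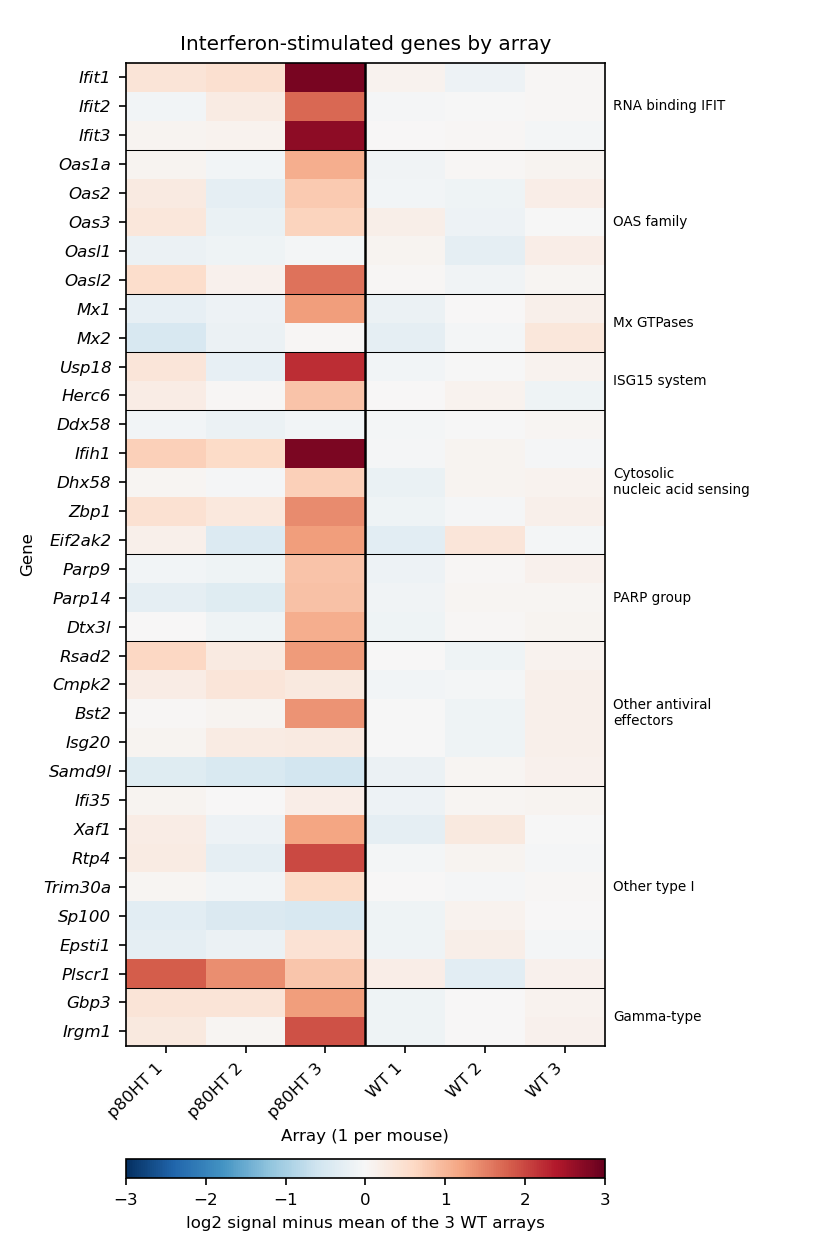
Each of the 34 measured members is a line and each array a column, p80HT at the left and WT at the right, and the colour is the log2 value minus the mean of the 3 WT arrays of that gene. The column of p80HT replicate 3 is the deepest red for most members, with Ifit1 at 2.86 over a WT mean below the background level, whereas p80HT replicates 1 and 2 lie close to WT for most genes.

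The array p80HT replicate 3 carried much of the pattern. It gave the highest value for 27 of the 34 members (79.4%), against 27.8% of all genes. It lay more than 1 log2 unit above every other array for 11 members (32.4%), against 4.90% of all genes. The 11 were Ifit1, Ifit2, Ifit3, Oas1a, Oasl2, Mx1, Usp18, Ifih1, Bst2, Rtp4 and Irgm1. The type I members had medians of 0.07, -0.10 and 0.87 above the WT mean on p80HT replicates 1 to 3, and of -0.09, 0.01 and 0.09 on the WT arrays. The gamma-type pair had medians of 0.34, 0.22 and 1.58 on the p80HT arrays and of -0.13, 0.01 and 0.12 on the WT arrays. The median type I difference was 0.31 with all arrays and 0.02 without p80HT replicate 3, beside -0.02 and 0.04 over all genes.

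Among mice of 1 genotype the members varied unequally. The SD over the 3 p80HT mice had a median of 0.543 over the members and ran between 0.0504 and 1.49. The SD over the 3 WT mice had a median of 0.128 and ran between 0.0295 and 0.341. The p80HT SD was the larger for 26 of the 34 members. Between p80HT replicates 1 and 2 alone the median absolute difference was 0.139, and the widest was 0.611 for Usp18. The spread in the p80HT group therefore lay mainly between replicate 3 and the other mice.

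Plscr1 had 11.39, 10.98 and 10.42 in p80HT mice, against 9.78, 9.26 and 9.71 in WT mice. All p80HT values lay above all WT values, and replicate 3, the array high for most other members, was the lowest of the p80HT arrays here. The p80HT mean was 10.93 ± 0.49 and the WT mean 9.58 ± 0.28 (SD, n = 3 each). The log2 difference was 1.35 (SE 0.267, 95% interval 0.72 to 1.98), with an adjusted p of 0.18 in limma. Without p80HT replicate 3 it was 1.60, with a limma adjusted p of 0.0012. Plscr1 is also on the study's own list of changed genes, which was chosen on these arrays, so its direction is not independent evidence. A second single-symbol probeset of the gene gave a log2 difference of 1.46 with all arrays and 1.61 without p80HT replicate 3. In a limma fit over all single-symbol probesets its unadjusted p with all arrays was 0.000197, against 0.00149 for the probeset used here.

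Ifih1, the RNA sensor Mda5, had 8.37, 8.24 and 10.48 in p80HT mice, against 7.61, 7.73 and 7.62 in WT mice. The p80HT arrays were all higher, with replicate 3 far above the rest. The log2 difference was 1.38 (SE 0.556), the widest of any member, with an adjusted p of 0.467 in limma. Without p80HT replicate 3 the log2 difference was smaller at 0.65, while its 95% interval of 0.41 to 0.89 was narrower, and the limma adjusted p was 0.0084. The call of Ifih1 thus rests on leaving out the array on which it was highest.

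The other cytosolic sensors did not pass. Zbp1, which senses Z-form nucleic acids and can start necroptosis, had 9.91, 9.78 and 10.87 in p80HT mice, against 9.33, 9.43 and 9.62 in WT mice. The groups did not overlap, and the log2 difference was 0.73 with all arrays and 0.38 without p80HT replicate 3. Ddx58, the sensor RIG-I, had 10.95, 10.85 and 10.93 in p80HT mice, against 10.97, 11.02 and 11.08 in WT mice. It lay slightly lower in every p80HT mouse, by a log2 difference of -0.11 with all arrays and -0.12 without p80HT replicate 3, and its 95% interval stayed within 1.5-fold. Dhx58, a regulator of both RNA sensors, differed by 0.25 and Eif2ak2, the kinase PKR that halts translation, by 0.33, with overlapping groups. The differences without p80HT replicate 3 were 0.013 for Dhx58 and -0.12 for Eif2ak2, so that 1 array carried both. Of the pair of RNA sensors, Ifih1 was therefore higher and Ddx58 lower in every p80HT mouse, and no test was made of one against the other.

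The IFIT proteins bind foreign RNA and restrain its translation, and none of the 3 passed. Ifit1 had 7.57, 7.66 and 10.03 in p80HT mice, against 7.27, 7.02 and 7.21 in WT mice. Its p80HT replicate 3 value was 2.86 above the WT mean, which lay below the background level, and the other p80HT mice were also above every WT mouse. The log2 difference of Ifit1 was 1.25 (adjusted p = 0.542 in limma) with all arrays and 0.44 without p80HT replicate 3. Ifit3 had 7.90, 7.94 and 10.51 in p80HT mice, against 7.83, 7.88 and 7.78 in WT mice. Here p80HT replicates 1 and 2 were only slightly above the WT mice, and the log2 difference was 0.95 with all arrays and 0.09 without p80HT replicate 3. Ifit2 had 7.11, 7.44 and 8.90 in p80HT mice, against 7.16, 7.18 and 7.22 in WT mice, with 1 p80HT mouse below all WT mice. The log2 difference of Ifit2 was 0.63 with all arrays and 0.09 without p80HT replicate 3.

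**Figure D2:**
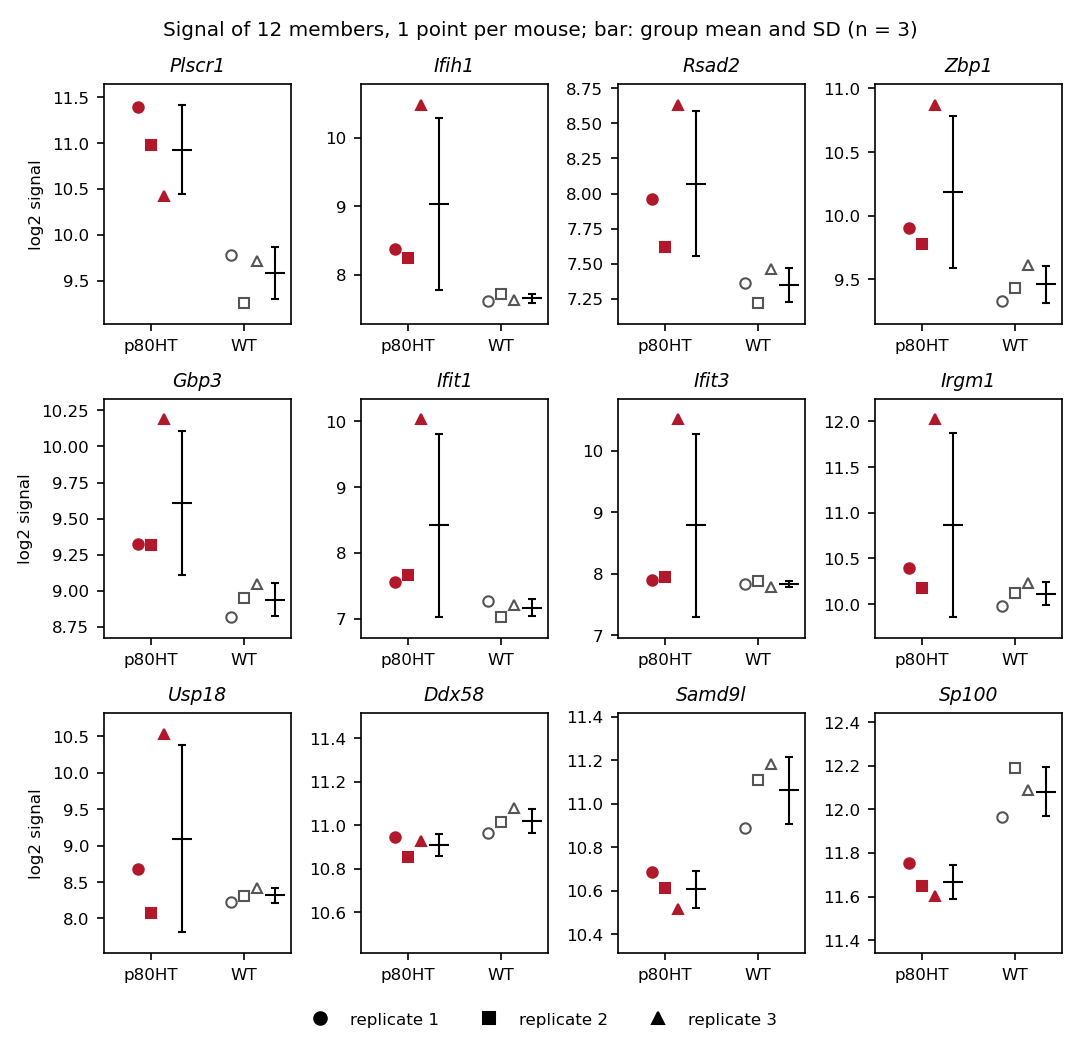
Each panel plots the log2 value of 1 member on every array, p80HT at the left and WT at the right, with the group mean and SD (n = 3) as a bar beside the points. Plscr1 is higher in all 3 p80HT mice, Ifit1, Ifit3 and Usp18 are far above the rest on p80HT replicate 3, and Samd9l and Sp100 are lower in all 3 p80HT mice.

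Of the OAS family, whose synthetases make the messenger that switches on RNase L, 0 of 5 passed. Oasl2, which can bind double-stranded RNA, had 9.36, 8.96 and 10.45 in p80HT mice, against 8.87, 8.73 and 8.87 in WT mice. The groups did not overlap, and the log2 difference was 0.76 with all arrays and 0.33 without p80HT replicate 3. The synthetases Oas1a, Oas2 and Oas3 differed by 0.37, 0.26 and 0.27, each with overlapping groups. They differed by 0.0025, 0.0023 and 0.07 without p80HT replicate 3, so that 1 array made most of each difference. Oasl1, which restrains Irf7 translation in the mouse, had a log2 difference of -0.12 with all arrays and -0.15 without p80HT replicate 3, and was highest in a WT mouse. The median difference was 0.95 for the IFIT members and 0.27 for the OAS members with all arrays, and 0.09 and 0.0025 without p80HT replicate 3.

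The MX GTPases did not pass. Mx1 had 6.49, 6.57 and 7.99 in p80HT mice, against 6.56, 6.75 and 6.88 in WT mice, a log2 difference of 0.29 with all arrays and -0.20 without p80HT replicate 3. Mx2 differed by -0.21 and, without that array, by -0.33. Many laboratory strains, C57BL/6 among them, carry a disrupted Mx1. Both genes had group means below the background level.

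Of the ISG15 system, Usp18, which removes ISG15 from proteins and dampens the type I receptor, had 8.68, 8.07 and 10.53 in p80HT mice, against 8.22, 8.30 and 8.42 in WT mice. It was high on p80HT replicates 1 and 3 and lowest of all on replicate 2, and the log2 difference was 0.78 with all arrays and 0.06 without p80HT replicate 3. Herc6, the ligase that attaches ISG15 in the mouse, differed by 0.37 with all arrays and by 0.13 without that array. Neither passed.

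Of the other antiviral effectors, 0 of 5 passed, and they did not move one way. Rsad2, the enzyme viperin, had 7.96, 7.62 and 8.63 in p80HT mice, against 7.36, 7.22 and 7.46 in WT mice. Its groups did not overlap, and the log2 difference was 0.72 (adjusted p = 0.421 in limma) with all arrays and 0.44 without p80HT replicate 3. Cmpk2, the mitochondrial kinase whose gene lies beside Rsad2, had 7.96, 8.10 and 8.05 in p80HT mice, against 7.66, 7.68 and 7.89 in WT mice. This gene was evenly higher in the 3 p80HT mice, by a log2 difference of 0.29 with all arrays and 0.28 without p80HT replicate 3. Bst2, the tether that holds budding virions, differed by 0.48 with all arrays and by 0.05 without p80HT replicate 3, and Isg20, an RNA exonuclease, by 0.20 and 0.16.

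Samd9l, which restrains growth of blood cells, had 10.69, 10.61 and 10.52 in p80HT mice, against 10.89, 11.11 and 11.18 in WT mice. Sp100, a nuclear body protein, had 11.76, 11.65 and 11.60 in p80HT mice, against 11.96, 12.19 and 12.09 in WT mice. In both genes every p80HT mouse was lower than every WT mouse, and p80HT replicate 3 was the lowest. The log2 difference was -0.46 for Samd9l (95% interval -0.77 to -0.14, adjusted p = 0.34 in limma) and -0.41 for Sp100 (adjusted p = 0.35 in limma). Neither difference reached 1.5-fold, and without p80HT replicate 3 they were -0.41 and -0.38.

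Of the PARP group, which modifies proteins with ADP-ribose, Parp9, Parp14 and the Parp9 partner Dtx3l differed by 0.22, 0.08 and 0.33. Parp14 had 9.45, 9.35 and 10.61 in p80HT mice, against 9.61, 9.78 and 9.78 in WT mice. It was thus highest on p80HT replicate 3 and lowest on the other p80HT arrays, and its log2 difference without replicate 3 was -0.32. Without that array Parp9 differed by -0.11 and Dtx3l by -0.05. All 3 genes of the group had a positive difference with all arrays and a negative one without p80HT replicate 3.

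The remaining type I members did not pass. Rtp4, a chaperone of receptor transport, had 8.34, 7.83 and 10.06 in p80HT mice, against 8.03, 8.18 and 8.06 in WT mice. The array of p80HT replicate 3 stood far above the rest, and the log2 difference was 0.66 with all arrays and 0.00 without it. Xaf1, which binds the apoptosis inhibitor XIAP, differed by 0.42, Trim30a, which restrains Toll-like receptor signalling in the mouse, by 0.18, Ifi35 by 0.10 and Epsti1 by -0.01. Their differences were 0.03, -0.01, 0.05 and -0.22 without p80HT replicate 3.

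**Figure D3:**
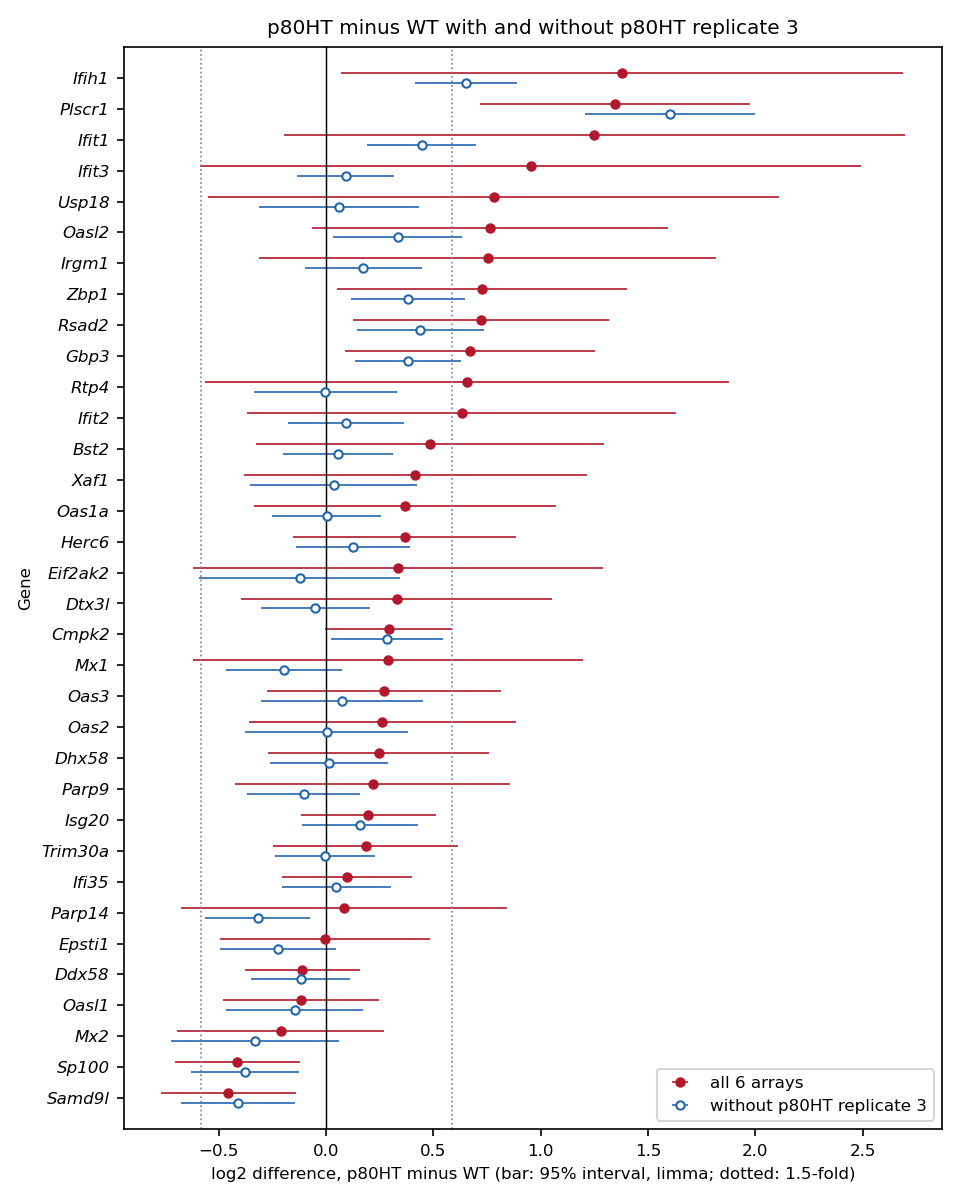
The log2 difference, p80HT minus WT, of each measured member is plotted with its 95% interval for all arrays and again without p80HT replicate 3. Plscr1 lies above 0 in both, at 1.35 and 1.60, whereas the differences of most members shrink toward 0 and their intervals narrow when p80HT replicate 3 is set aside.

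The gamma-type members, GTPases that act on pathogen vacuoles, were 2 of 5 listed, and 0 of 2 passed. Gbp3 had 9.33, 9.32 and 10.19 in p80HT mice, against 8.82, 8.95 and 9.05 in WT mice. Every p80HT mouse was above every WT mouse, and the log2 difference was 0.67 (adjusted p = 0.432 in limma) with all arrays and 0.38 without p80HT replicate 3. Irgm1, a regulator of the other IRG GTPases, had 10.40, 10.17 and 12.02 in p80HT mice, against 9.98, 10.12 and 10.23 in WT mice. The p80HT replicate 3 array was far above the others, replicate 2 lay within the WT range, and the log2 difference was 0.75 with all arrays and 0.17 without replicate 3. The median of the pair was 0.71 with all arrays and 0.28 without p80HT replicate 3, above the type I medians of 0.31 and 0.02, and no test was made of gamma-type against type I members.

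Set beside the promoter windows, the 12 members with an ISRE match had a median of 1.27 above the WT mean on p80HT replicate 3, and the 13 with a window and no match had a median of 0.43. The 9 members with no window, for which a match could not be searched, had a median of 0.88 on that array. Without p80HT replicate 3 the median differences were 0.08 with a match, 0.05 with no match and -0.0042 with no window. The members overlapped widely, since Ddx58 with a match was at -0.09 on p80HT replicate 3 and Ifit2 with no match at 1.71.

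A wider list of 118 genes of the interferon pathways, of which 100 were measured, held 4 genes that rose, 1 that fell and 95 that did not pass, against 1.22% of all genes higher and 0.968% lower. The genes that rose were Gbp7, Nlrc5, Psmb9 and Ifnlr1, and the gene that fell was Ms4a4c. None had an adjusted p under 0.05 in limma, and 25 had an unadjusted p under 0.05, against 10.2% of all genes. Without p80HT replicate 3, 8 genes rose and 2 fell, against 2.01% and 1.45% of all genes. At an adjusted p under 0.05 in limma 11 were higher and 4 lower in this setting, against 4.67% of all genes in either direction. The 8 were Cxcl10, Gbp7, Gbp8, Ifitm3, Iigp1, Lgals3bp, Nlrc5 and Parp12, and the 2 that fell were Ms4a4c and Trim21. Iigp1 lay below the background level on every array of this setting.

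Of 16 ligand genes 0 passed. Ifng, the gamma interferon, had 8.73, 8.32 and 9.77 in p80HT mice, against 7.33, 8.04 and 8.45 in WT mice. The groups overlapped, with a log2 difference of 1.00 (adjusted p = 0.483 in limma), and Ifnb1 differed by -0.04. Ifnb1 ran between 5.91 and 6.66 over the arrays, below the background level, so its differences do not show an unchanged transcript. Of the other ligands some means were below that level, as for Ifna4 and Ifna11, and some above it, as for Ifna5 and Ifna14. When p80HT replicate 3 was left out, Ifng differed by 0.58 and Ifnb1 by 0.15. Ifnlr1, the chain particular to the lambda interferon receptor, had 8.60, 8.47 and 9.10 in p80HT mice, against 8.08, 7.995 and 7.92 in WT mice, a log2 difference of 0.73 with all arrays and 0.54 without p80HT replicate 3. The other receptor chains Ifnar1, Ifnar2, Ifngr1 and Ifngr2 differed by -0.13, 0.25, 0.02 and 0.05 with all arrays and by -0.14, -0.01, -0.13 and 0.07 without p80HT replicate 3. Of 5 signalling genes 0 passed, with Jak1 at -0.20, Jak2 at 0.10, Tyk2 at 0.04, Stat2 at -0.29 and Irf9 at 0.15. Stat2 overlapped between the groups with all arrays, and without p80HT replicate 3 its log2 difference was -0.51. In that setting Jak1 was at -0.21, Jak2 at 0.19, Tyk2 at 0.06 and Irf9 at 0.27.

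Of 7 interferon regulatory factor genes 0 passed. Irf7, which amplifies type I interferon production, had 9.71, 9.48 and 11.45 in p80HT mice, against 9.49, 9.41 and 9.52 in WT mice. It was far above the rest on p80HT replicate 3, and the log2 difference was 0.74 with all arrays and 0.13 without it. Irf4, a factor of plasma cell differentiation, had 12.08, 12.05 and 10.34 in p80HT mice, against 12.18, 12.28 and 12.35 in WT mice. Its log2 difference was -0.78 with all arrays and -0.21 without p80HT replicate 3. Of 6 plasma cell markers, 4 had a positive difference in both settings and 2 a negative one, Irf4 and Jchain. Of these markers 1 passed, Prdm1, at 0.80 with all arrays and 0.67 without p80HT replicate 3. Over all genes 1.22% and 2.01% were called higher in these settings.

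Of the further gamma-type targets, 2 of 20 rose, with a median of 0.48 with all arrays and 0.11 without p80HT replicate 3. Gbp7, another GTPase of the GBP family, had 9.91, 9.73 and 11.17 in p80HT mice, against 8.86, 8.90 and 8.88 in WT mice, a log2 difference of 1.39 with all arrays and 0.94 without p80HT replicate 3. Psmb9, a subunit of the immunoproteasome, had 10.85, 10.80 and 11.40 in p80HT mice, against 10.23, 10.30 and 10.22 in WT mice, a log2 difference of 0.77 with all arrays and 0.57 without p80HT replicate 3. In both genes every p80HT mouse was above every WT mouse. The Psmb9 and Ifnlr1 differences did not reach 1.5-fold without p80HT replicate 3, and the calls of Gbp7, Psmb9 and Ifnlr1 were lost when any 1 WT array was left out, with log2 differences of 1.38 to 1.40 for Gbp7, 0.75 to 0.79 for Psmb9 and 0.69 to 0.77 for Ifnlr1. Iigp1, an IRG GTPase with WT values below the background level, had 6.98, 6.66 and 11.29 in p80HT mice, against 6.00, 5.99 and 6.20 in WT mice. The chemokine Cxcl9 had 8.31, 8.12 and 13.31 in p80HT mice, against 8.33, 8.36 and 7.80 in WT mice, and Cxcl10 had 9.91, 9.68 and 12.76 in p80HT mice, against 8.50, 8.20 and 9.05 in WT mice. Cxcl9 was thus high on p80HT replicate 3 alone, whereas Cxcl10 was also above WT in the other p80HT mice. Iigp1 was above WT in those mice too, but its values there were also below the background level. The log2 differences were 1.75 for Cxcl9, 2.20 for Cxcl10 and 2.25 for Iigp1 with all arrays, and 0.06, 1.21 and 0.76 without p80HT replicate 3.

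Of the further type I targets, 1 of 30 rose and 1 fell. Nlrc5, an activator of MHC class I genes, had 11.97, 11.75 and 11.67 in p80HT mice, against 10.63, 10.87 and 10.92 in WT mice, a log2 difference of 0.99 (adjusted p = 0.0982 in limma). Ms4a4c, of the MS4A family of membrane proteins, had 10.80, 10.58 and 10.91 in p80HT mice, against 11.55, 11.95 and 11.80 in WT mice, a log2 difference of -1.01 (adjusted p = 0.116 in limma). Neither difference rested on p80HT replicate 3, since without it they were 1.05 and -1.08.

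**Figure D4:**
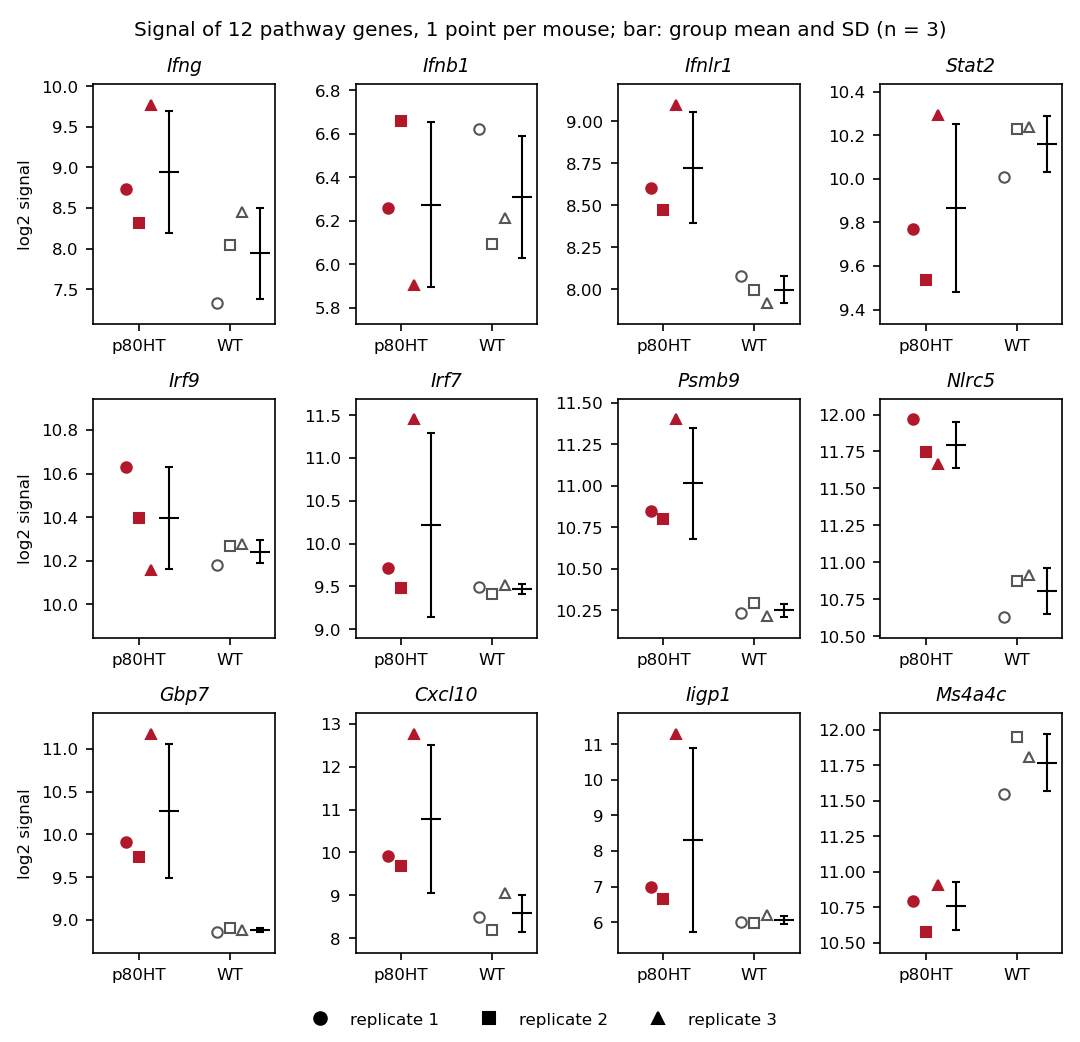
Each panel plots the log2 value on every array of 1 gene of the wider interferon list, p80HT at the left and WT at the right, with the group mean and SD (n = 3) as a bar beside the points. Nlrc5 and Gbp7 are higher and Ms4a4c lower in all 3 p80HT mice, and Irf7 is far above the rest on p80HT replicate 3.

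Markers of other cell types also differed between the arrays. Over all genes 1.22% were called higher and 0.968% lower with all arrays, and 2.01% and 1.45% without p80HT replicate 3. Of 9 measured T cell markers 3 rose with all arrays and 7 without p80HT replicate 3, and their summed linear signal ran between 5857 and 18852 in p80HT mice and between 2890 and 3699 in WT mice. Of 9 macrophage and monocyte markers 1 rose, Adgre1, with and without that array, and their summed signal ran between 8701 and 28864 in p80HT mice and between 6082 and 6524 in WT mice. Of 9 B cell markers 0 passed with all arrays and 2 fell without p80HT replicate 3, Cr2 by 1.13 and Fcer2a by 1.00 on the log2 scale, with a summed signal between 21492 and 45145 in p80HT mice and between 50107 and 57654 in WT mice. The 32 type I members had a summed signal between 23117 and 37657 in p80HT mice and between 22802 and 25041 in WT mice, with the highest sum on p80HT replicate 3. The gamma-type pair had one between 1793 and 5328 in p80HT mice and between 1463 and 1735 in WT mice. The 5 neutrophil markers ran otherwise, with medians of 1.28, 0.79 and -2.49 above the WT mean on p80HT replicates 1 to 3. On p80HT replicates 1 and 2 the T cell medians of 0.85 and 0.66 stood beside type I medians of 0.07 and -0.10. The fibroblast, endothelial, NK cell and conventional dendritic cell lists also had medians above the WT mean on p80HT replicate 3, of 1.83, 1.73, 1.51 and 1.18. Pecam1 of the endothelial list was at -1.27 on that array. The part of the signal of any of these cell types, or of gland, in the interferon-stimulated genes was not tested.

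Of 8 plasmacytoid dendritic cell markers 0 passed with all arrays. Without p80HT replicate 3, 1 fell, Cd209d by 1.22 on the log2 scale, against 1.45% of all genes called lower. Their summed signal ran between 6804 and 7388 in p80HT mice and between 6774 and 7586 in WT mice. That sum follows the brightest genes, Tcf4 and Rnase6, with WT means of 11.36 and 10.99. The list medians relative to the WT mean were -0.36, -0.20 and -0.39 on p80HT replicates 1 to 3, and -0.06, 0.09 and 0.05 on the WT arrays. With all arrays 6 of the 8 had a negative difference and 2 a positive one, Lair1 at 0.63 and Tcf4 at 0.11. Siglech, a surface receptor that defines these cells in the mouse, had 8.67, 8.82 and 8.68 in p80HT mice, against 8.95, 9.30 and 9.21 in WT mice. Lair1, an inhibitory receptor that many leukocytes share, had 8.67, 8.82 and 10.48 in p80HT mice, against 8.65, 8.68 and 8.74 in WT mice. Siglech was thus lower in every p80HT mouse, and Lair1 was far above the rest on p80HT replicate 3.

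**Figure D5:**
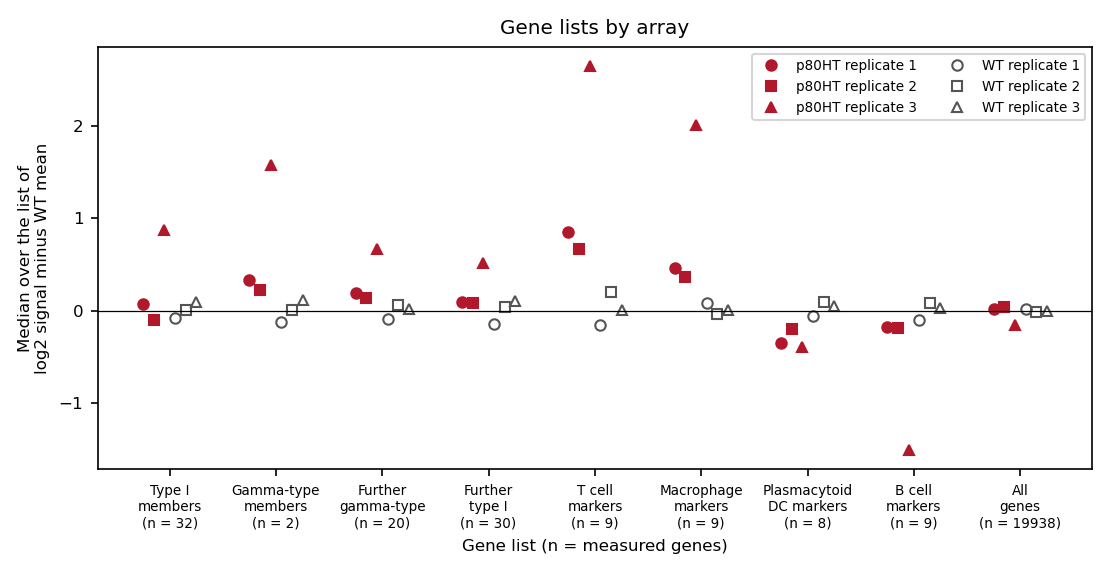
For each gene list the median log2 value minus the WT mean is plotted on every array, p80HT at the left and WT at the right. On p80HT replicate 3 the type I median is 0.87 and the gamma-type median 1.58, beside 2.64 for T cell markers, 2.01 for macrophage markers and -1.51 for B cell markers.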

How the data were processed

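RNA of B220-selected spleen cells from 3 p80HT and 3 WT mice was hybridised to Affymetrix Mouse Gene 1.0 ST arrays, 1 per mouse. The deposited values are log2 probeset signals that the authors made with RMA in Partek, whose version and settings are not given in the sources used here. RMA normalizes between arrays, so an array of unlike composition can shift genes on it. Of 28853 probesets, 21789 carry 1 symbol and only these were used. The p80HT and WT arrays were set against each other in 1 fit over 19938 genes (R 4.3.3, limma 3.58.1 with eBayes, 2-sided, no block), with Benjamini-Hochberg adjustment over all of them. The fit was tested on simulated data with means and SDs from the arrays without p80HT replicate 3 and equal noise in both groups. That test therefore did not cover the spread that p80HT replicate 3 brings. An exact permutation test of 3 against 3 mice cannot go below p = 0.10. All listed members were named, together with pathway genes past the threshold and pathway regulators. The members and lists were chosen with earlier results of these data known. Alternatives were a replicate block, ordinary analysis of variance, an intensity trend, array weights, median centring, quantile normalization, other thresholds, and leaving out each array. Arrays give no read depth, so their number and the signal over background limit precision.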

Additional observations from a re-analysis of the deposited data

How the results depend on the processing

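The calls of type I members higher in p80HT, 1 in the report, became 2 with a replicate block (Plscr1 and Rsad2), 2 with array weights (Ifih1 and Plscr1), 4 at 1.5-fold with p under 0.05 (Ifih1, Plscr1, Rsad2 and Zbp1), 0 at an adjusted p under 0.05 and 0 with ordinary analysis of variance. The ordinary analysis of variance was run on the brighter Plscr1 probeset and not on the second. Plscr1 is on the study's list, which also came from an analysis of variance. Type I members called lower, 0 in the report, became 1 (Mx2) with array weights. Gamma-type members called higher, 0 in the report, became 1 (Gbp3) at 1.5-fold with p under 0.05. Over all genes the calls, 243 higher and 193 lower, became 119 and 77 with ordinary analysis of variance, 478 and 422 with array weights, 10 and 1 at an adjusted p under 0.05, and 470 and 385 at 1.5-fold with p under 0.05. With median centring 308 genes were lower, and the median of all genes was -0.09. The wider list, 4 higher and 1 lower, became 12 and 2 with the replicate block, with array weights and at 1.5-fold with p under 0.05, 0 and 0 at an adjusted p under 0.05, 1 higher with ordinary analysis of variance, and 2 lower with the intensity trend or with median centring. The causes were not tested.

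With 1 array left out, the calls over all genes ran between 137 (without WT replicate 2) and 401 (without p80HT replicate 3) higher and between 69 and 290 lower, on the same 2 arrays. Without WT replicate 3 they were 149 and 71, 158 higher without WT replicate 1, and 314 higher and 166 lower without p80HT replicate 2. Type I calls ran between 1 and 2 higher, with 2 without p80HT replicate 2 (Plscr1 and Rsad2) or p80HT replicate 3 (Ifih1 and Plscr1), and 0 lower, and gamma-type calls were 0 in both directions. The wider list ran between 1 (without WT replicate 1) and 9 (without p80HT replicate 2) higher and between 1 and 3 lower. Ifnlr1 and Psmb9 lost their calls without p80HT replicate 3 or any 1 WT array, and Gbp7 without any 1 WT array. Members whose groups did not overlap ran between 9 and 16 higher and between 3 and 5 lower. Leaving out an array can only keep or add such genes, so 9 and 3 were the lowest counts possible when an array was left out. Without p80HT replicate 3 the shares of all genes were 19.7% higher and 20.5% lower. The shares without each of the other arrays were not computed, so the range is no result about the members. With every array kept, the counts became 6 higher and 3 lower with median centring, and 12 higher and 2 lower with quantile normalization. The shares of all genes under these normalizations were not computed either. The type I median ran between 0.02 and 0.53 and the gamma-type median between 0.28 and 0.96, both lowest without p80HT replicate 3. Plscr1 kept its call without any 1 array, with log2 differences of 1.11 to 1.60.

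The replicate numbers were shared between groups, and the labels do not say whether they pair the mice. Deviations of same-numbered mice from their own group means correlated at 0.074, -0.241 and 0.069. These values cannot settle a pairing, since p80HT replicate 3 stood apart and its values enter every p80HT group mean. Over the 34 members and the alternatives that refitted their values, 443 values kept their direction and side of the threshold, 5 gained a call, 1 lost one and 20 changed sign without a call. No called value changed sign. Low signal limits Mx1 and Mx2, whose means were below the olfactory receptor level in both groups, and Ifit1, Ifit2 and Rsad2, whose WT means were below it.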
